A study of Sus scrofa with 16 samples.

Results

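The genes described here code mostly for ion channels, their auxiliary subunits and gap junction proteins in the left ventricle of exercise-trained and sedentary pigs. They were taken by symbol, as every gene on the array whose platform symbol starts with KCN, SCN, CACN, HCN, TRPM, TRPC, TRPV, CLCN, GJA, GJB or GJC. The rule gave 41 genes of the 6765 that carried a single symbol, measured by 63 of the 23935 probe sets tested. Each gene is represented by its brightest probe set, the set of short DNA probes with the highest mean signal over all arrays, and 17 genes had further probe sets. Tissue came from 16 Yorkshire x Landrace swine of 2 to 3 months, 8 exercise-trained (exercised 1 to 8) and 8 sedentary (sedentary 1 to 8), with 4 females and 4 neutered males in each group. RNA was isolated 4 to 5 weeks after the protocol began, and 1 array was hybridised per animal. The kind and amount of exercise are not given in the sources used here, and no agent or genetic change is named for either group.

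Ion channels are membrane pores that open to voltage, ligands or cell state and so set the electrical signal of the heart. In a working heart cell, sodium and calcium channels carry the upstroke and the plateau, and potassium channels bring the membrane back to rest. Auxiliary subunits do not conduct by themselves but set how many pores reach the surface and how fast they open and close. Connexins join neighbouring cells through gap junctions, so that the signal passes from cell to cell.

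The array covered these roles unevenly. There were 22 potassium channel genes, 5 genes under CACN, all of them named as auxiliary subunits of calcium channels, and 5 connexin genes. A further 3 genes fell under SCN, 3 under TRPM, TRPC or TRPV and 3 under CLCN. The symbol rule also took genes that code for neither a channel nor a channel subunit. These were the splicing factor SCNM1, TRPC4AP, a protein that binds a TRP channel, and the endosomal exchangers CLCN3 and CLCN5. Of 50 genes of the cardiac action potential and conduction that had been listed, 21 were measured. The calcium channel pore CACNA1C and the pacemaker channels of the HCN family were not among them. Both groups showed the markers of working heart muscle, with MYH7 at 14.53 and 14.49 log2 and TNNI3 at 14.53 and 14.47 log2 in exercised and sedentary animals, and 0 of the 8 markers measured passed the test. In such tissue RNA, fewer cells of a type and less RNA per cell cannot be told apart.

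Signal on the array is given on the log2 scale, on which a difference of 1 is a factor of 2. Signal also depends on how well a probe binds, so amounts of RNA are not compared between genes, and levels of different probe sets are set side by side only as signal strength. All differences below are exercised minus sedentary, averaged over the sexes, with a 95% interval or standard error (SE) and an adjusted p from limma, a linear model fitted to all 23935 probe sets. Rose and fell are used where the adjusted p was under 0.05.

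Over all probe sets 13.4% passed the training test, and over the brightest probe set of each gene 10% did. Of the 41 ion channel and gap junction genes 10 passed, or 24.4%. Fewer rose than fell. KCNJ3, KCNMA1 and CACNB4 rose, against a background of 5.11% higher, and KCNIP4, GJB5, KCNIP1, CLCN5, KCNA6, KCNE4 and KCNN4 fell, against 4.91% lower. The median difference of the 41 genes was -0.04, beside 0.01 over all genes, and 15 had an unadjusted p under 0.05, or 36.6%, beside 22.9% of all genes. In 6 of the 41 genes, or 14.6%, no exercised animal overlapped any sedentary animal, while 2.23% of all genes had groups apart in this way. The members were dimmer, with a median signal of 6.27 log2 beside 7.64 over all genes. None of the 6 lay above the 60th percentile of signal, and the share of all genes with groups apart was not split by level. In 11 members every exercised animal lay on 1 side of the sedentary mean, and 3 of these, KCNJ8, CACNG3 and GJA5, did not pass. The share of all genes with that trait was not counted. The same 10 genes passed with the array sets described next as a block, and CACNG3 passed as well, for 11 in all, beside a background of 14.8%.

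**Figure D1:**
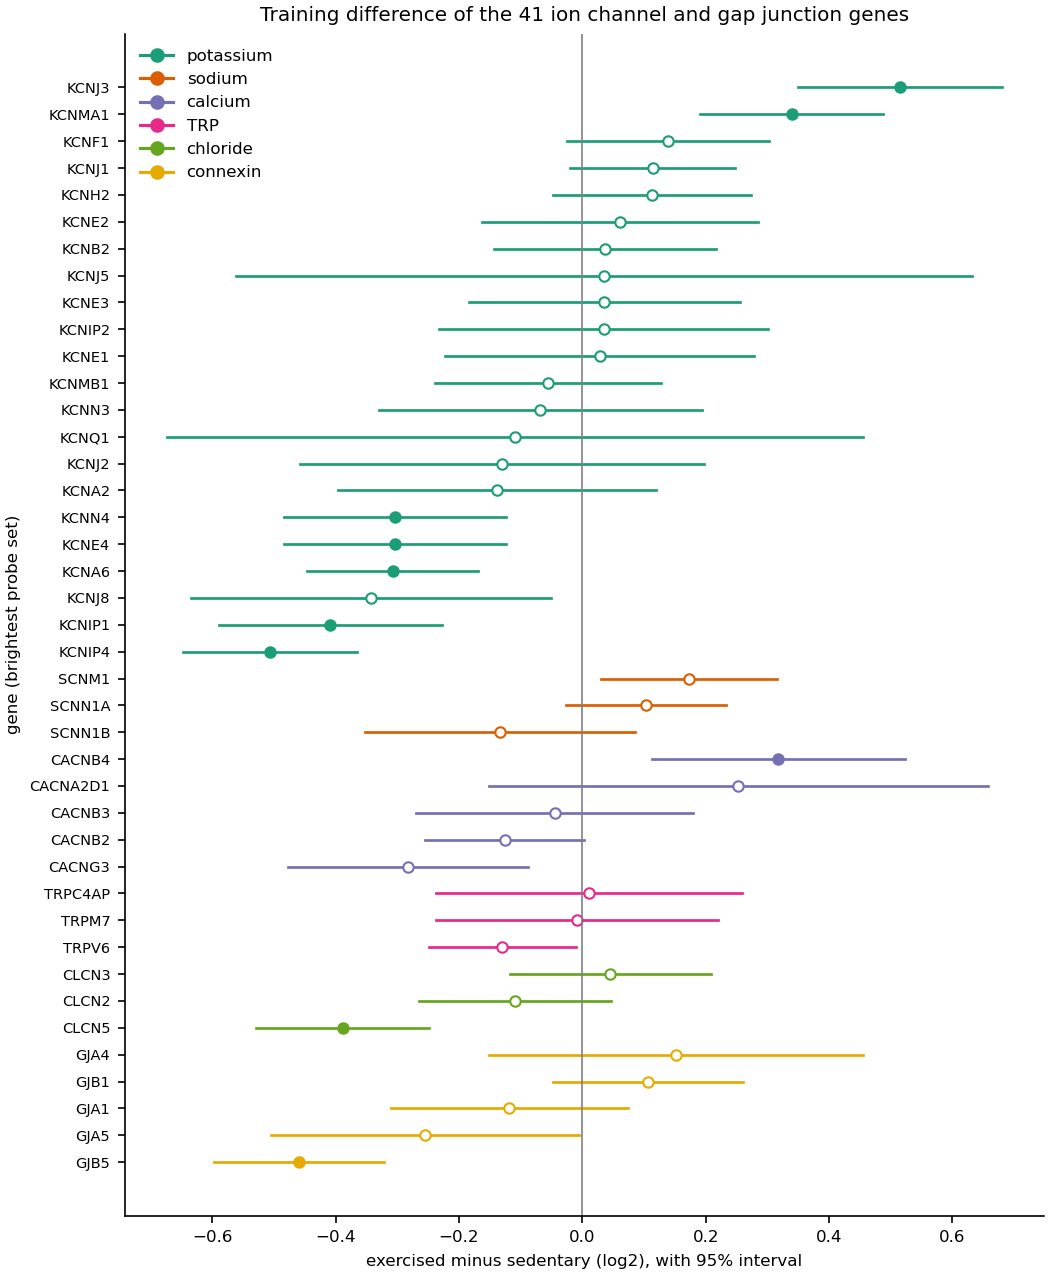
Difference in log2 signal between exercised and sedentary animals (x axis) for each of the 41 genes (y axis), coloured by class, from the brightest probe set, with its 95% interval; filled points passed an adjusted p of 0.05. The 3 rises are KCNJ3, KCNMA1 and CACNB4, the 7 falls run from -0.51 for KCNIP4 to -0.30 for KCNN4, and most other intervals include 0.

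Signal level and array set bear on these counts. Up to the 40th percentile of signal, 24.4% of all genes passed and 6 of the 16 channel and connexin genes there. Above the 40th up to the 60th percentile it was 15% of all genes and 4 of 11 members, and above the 60th it was 4.36% and 0 of 14. The array also carries 81 probe sets for reporter genes and artificial tags, which have no pig target according to their names. Of these, 95% lay at or below 5.12 log2, and 13 passed the training test, or 16%, with differences from -0.39 to 0.42. The brightest of them was at 13.66 log2, so not all were free of signal. Signal of 6 of the 10 called members, KCNIP4, CLCN5, KCNN4, KCNIP1, KCNMA1 and KCNJ3, lay at or below that level, and GJB5, KCNA6, CACNB4 and KCNE4 lay above it. The part of background signal in the 6 dim calls was not tested. The bacterial poly-A control transcripts split the arrays into set A, 11 arrays at 7.80 to 8.96 log2, and set B, 5 arrays at 6.17 to 6.75 log2, which the labels do not name. Set B holds exercised 7 and 8 and sedentary 6, 7 and 8. All 10 called members had a difference of the same sign in both sets.

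**Figure D2:**
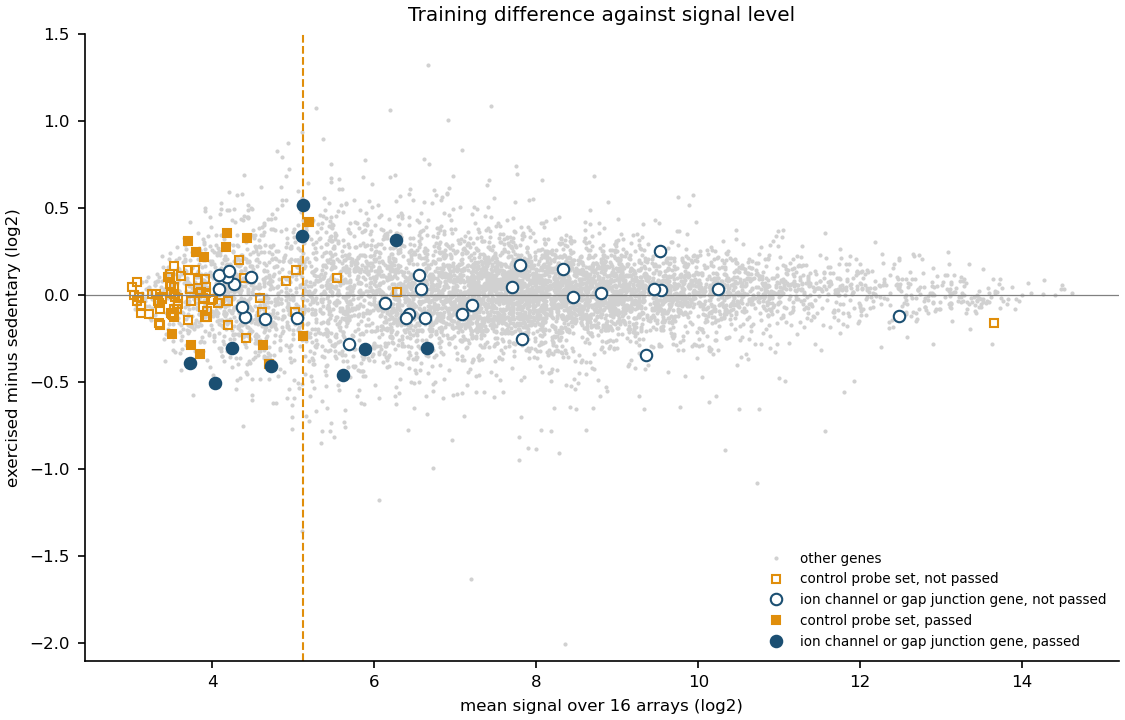
Difference in log2 signal between exercised and sedentary animals (y axis) against mean signal over 16 arrays (x axis, log2) for the brightest probe set of each gene, with channel and connexin genes as circles and the 81 control probe sets as squares, filled where the adjusted p was under 0.05. The dashed line marks 5.12 log2, below which 6 of the 10 filled circles lie, and there is no filled circle among the 14 genes above the 60th percentile.

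KCNJ3 had the largest rise. It codes for a subunit of the acetylcholine-gated inward rectifier, the potassium channel through which the vagus nerve slows the heart, and pairs with KCNJ5. Signal ran from 5.16 to 5.53 log2 in exercised animals with a median of 5.37, and from 4.68 to 5.17 in sedentary animals with a median of 4.82. Every exercised animal lay above the sedentary mean, and the groups touched only where the lowest exercised animal, exercised 5, met the highest sedentary animal, sedentary 6. The rise was 0.51 (SE 0.0779, adjusted p = 0.000543), a factor of 1.43, with 0.54 in set A and 0.45 in set B. The second KCNJ3 probe set rose by 0.49 (adjusted p = 0.00601). Its partner KCNJ5 did not pass, at 0.04 (95% interval -0.56 to 0.63, adjusted p = 0.956), with 0.37 in set A and -0.65 in set B. KCNJ5 varied most among animals of all members, with an SD of 0.58 over the 16 arrays and values from 8.57 to 10.33 in the exercised group alone.

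KCNJ8 codes for the pore of the vascular ATP-sensitive potassium channel, which opens when ATP is low and relaxes small vessels. Its 3 probe sets all gave lower signal in exercised animals, and all 8 exercised animals lay below the sedentary mean on each. On the brightest, exercised animals ran from 8.86 to 9.47 log2 with a median of 9.14 and sedentary animals from 8.91 to 10.04 with a median of 9.49. That difference was -0.34 and did not pass (adjusted p = 0.117), with -0.22 in set A and -0.49 in set B. Among the females of set A it was -0.07. Without sedentary 1 it was -0.42 and passed (adjusted p = 0.043). Leaving out any other array did not make it pass, with -0.24 without sedentary 8, and the adjusted p reached 0.211. On the other probe sets KCNJ8 fell by 0.38 (adjusted p = 0.0331) and by 0.54 (adjusted p = 0.0083). The mean of the 3 probe sets fell by 0.42 (adjusted p = 0.0262). These were the brightest probe sets of any member to pass, at 9.31 and 8.13 log2. Markers of vascular smooth muscle and pericytes, the cells in which this channel is best known, had a mean level of 9.37 to 9.93 log2 in exercised and 9.33 to 9.98 in sedentary animals, with 0 of 6 past the test and a median difference of -0.03. The part of cell makeup in the KCNJ8 values was not tested.

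Of the other inward rectifiers, KCNJ2, a pore of the current that holds the resting potential, differed by -0.13 (95% interval -0.46 to 0.20, adjusted p = 0.653) at 5.04 log2. KCNJ1, known from the kidney, differed by 0.11 without passing. So 1 of the 5 inward rectifier genes passed on its brightest probe set, beside 10% of all genes. KCNJ3 lay up to the 40th percentile of signal, where 24.4% of all genes passed.

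Among the calcium-activated potassium channels the changes ran in both directions. KCNMA1, the pore of the large-conductance BK channel, ran from 5.03 to 5.49 log2 in exercised animals (median 5.30) and from 4.75 to 5.02 in sedentary animals (median 4.96). The groups did not overlap. The rise was 0.34 (SE 0.0699, adjusted p = 0.00485), with 0.35 in set A and 0.27 in set B. A second, dimmer KCNMA1 probe set gave 0.01 (adjusted p = 0.973), and the mean of both did not pass, at 0.17 (adjusted p = 0.0906). KCNMB1, the BK subunit of smooth muscle, differed by -0.06 (95% interval -0.24 to 0.13) without passing. KCNN4, an intermediate-conductance channel of endothelium and immune cells, fell by 0.30 (SE 0.0848, adjusted p = 0.0272), from a sedentary median of 4.40 log2 to an exercised median of 4.09. The exercised animals spread from 3.80 to 4.42 and overlapped the sedentary range of 4.26 to 4.54. KCNN4 did not pass in set A alone (-0.22, adjusted p = 0.207). It also did not pass without exercised 1, 4, 7 or 8 or sedentary 3, left out in turn, at -0.29 to -0.26 (adjusted p = 0.0512 to 0.0579). Among 8 measured immune markers CD3G, CD79B and S100A8 rose, 0 fell and 5 did not pass. CD3G, CD79B and S100A8 were dim, at 5.38, 4.00 and 4.44 log2, up to the 40th percentile, where 12.1% of all genes were higher. The mean level of the immune list was 5.74 to 6.08 log2 in exercised and 5.36 to 6.58 in sedentary animals. The part of the immune markers in the KCNN4 result was not tested.

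**Figure D3:**
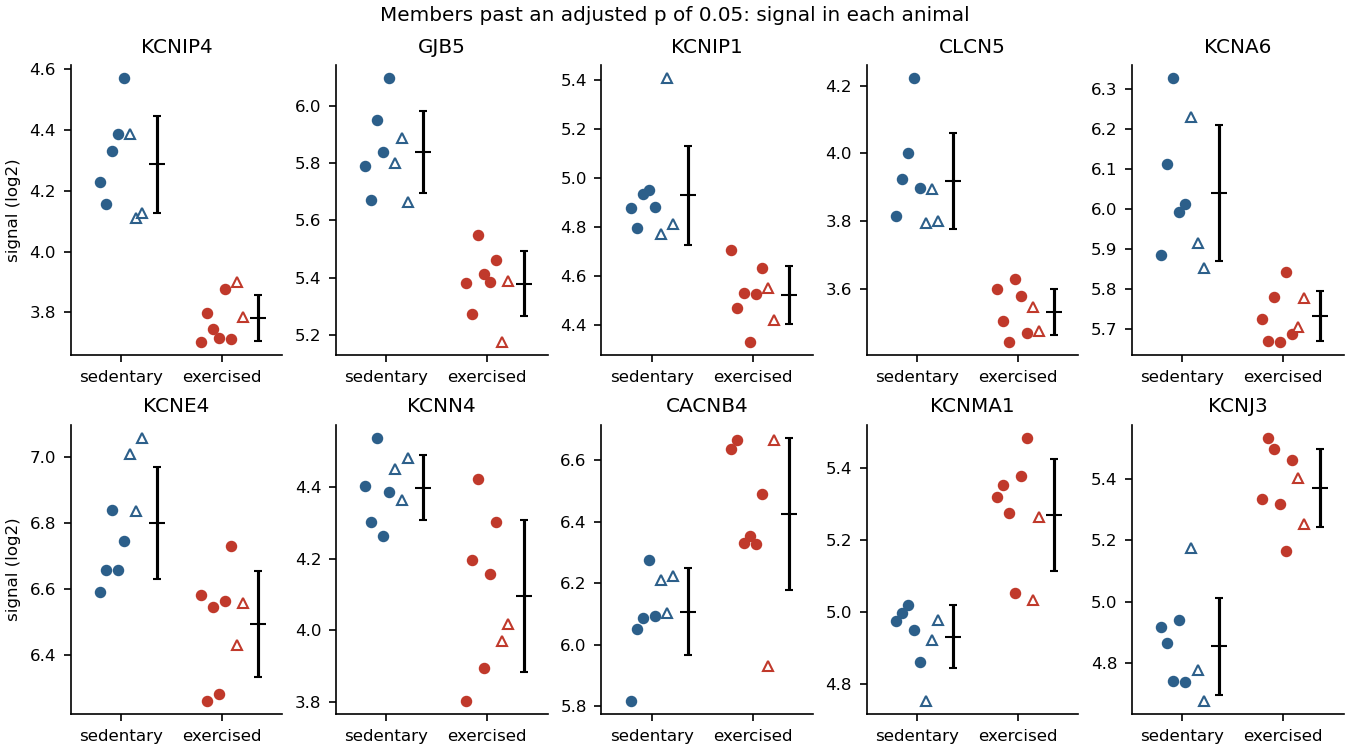
Signal in log2 (y axis) of the 10 genes past an adjusted p of 0.05 in each sedentary (blue) and exercised (red) animal, with filled circles for array set A, open triangles for set B, and mean and SD over 8 animals beside the points. The groups do not overlap for KCNIP4, GJB5, KCNIP1, CLCN5, KCNA6 and KCNMA1.

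Auxiliary potassium channel subunits gave 3 falls and no rise among 7 genes, beside 4.91% lower and 5.11% higher over all genes. KCNIP4 and KCNIP1 lay up to the 40th percentile of signal, where 12.3% of all genes were lower. KCNE4 lay above the 40th up to the 60th percentile, where 7.93% were lower. KCNIP genes code for calcium-binding proteins that bind the transient outward channel and change how it opens and closes, and KCNIP2 is the family member known from heart muscle. KCNIP4 had the largest fall of all 41 genes. It ran from 3.70 to 3.90 log2 in exercised animals (median 3.77) and from 4.11 to 4.57 in sedentary animals (median 4.28), with a gap between the groups. The fall was 0.51 on the log2 scale (SE 0.0663, adjusted p = 0.000205), with -0.57 in set A and -0.36 in set B. KCNIP1 ran from 4.33 to 4.71 in exercised and from 4.77 to 5.41 in sedentary animals, again apart, and fell by 0.41 (SE 0.0851, adjusted p = 0.00526). The cardiac KCNIP2, at 10.24 log2, differed by 0.03 (95% interval -0.23 to 0.30, adjusted p = 0.902), and its exercised range of 9.95 to 10.70 lay over the sedentary range of 9.83 to 10.66. KCNIP4 and KCNIP1 are best known from neurons. Of 6 measured nerve and glia markers SOX10 rose by 0.41 and NEFL fell by 0.20, and the list's mean level was 5.35 to 5.68 log2 in exercised and 5.33 to 5.72 in sedentary animals. Their part in the KCNIP results was not tested.

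KCNE genes code for small single-pass subunits that sit beside the KCNQ1 pore and others. KCNE4, which inhibits several of these pores, fell on both of its probe sets. On the brightest, exercised animals ran from 6.26 to 6.73 log2 (median 6.55) and sedentary animals from 6.59 to 7.06 (median 6.79), and every exercised animal lay below the sedentary mean. The fall was 0.30 (SE 0.0847, adjusted p = 0.0266), with -0.20 in set A and -0.47 in set B. In set A alone it did not pass (adjusted p = 0.198). Without exercised 2, 4 or 7 or sedentary 6, left out in turn, it did not pass either, at -0.29 to -0.27 (adjusted p = 0.0512 to 0.0572). It also did not pass when dim probe sets, up to the 40th percentile, were left untested (adjusted p = 0.063). On the second probe set the groups did not overlap, at 4.51 to 4.98 against 5.04 to 5.39, and KCNE4 fell by 0.37 (adjusted p = 0.003). KCNE1, the partner of KCNQ1 in the slow delayed rectifier, differed by 0.03 on its brightest probe set (95% interval -0.22 to 0.28, adjusted p = 0.915). Its 2 dimmer probe sets parted, with a fall of 0.39 (adjusted p = 0.00941) on one and 0.09 without passing on the other. KCNE2 and KCNE3 differed by 0.06 and 0.04 without passing.

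Of the 6 voltage-gated potassium pores 1 passed, beside 10% of all genes and 15% of those above the 40th up to the 60th percentile of signal, where KCNA6 lay. KCNA6, a delayed rectifier of the Shaker family, ran from 5.67 to 5.84 log2 in exercised animals (median 5.72) and from 5.85 to 6.33 in sedentary animals (median 6.00). The groups lay side by side without overlap, and the sedentary animals were the more spread, with an SD of 0.17 against 0.06. The fall was 0.31 (SE 0.0651, adjusted p = 0.00578), with -0.34 in set A and -0.26 in set B. KCNH2, the pore of the rapid delayed rectifier, differed by 0.11 (95% interval -0.05 to 0.27, adjusted p = 0.375), and its dimmer probe set by -0.24 without passing (adjusted p = 0.0644).

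KCNQ1, the pore of the slow delayed rectifier, followed the array set on its brightest probe set. Its 11 set A values ran from 5.83 to 6.25 log2 and its 5 set B values from 7.02 to 7.51, with both training groups in each. The training difference was -0.11 (95% interval -0.67 to 0.46, adjusted p = 0.845), with 0.15 in set A and -0.23 in set B. All 4 KCNQ1 probe sets gave a negative difference, and the third brightest fell by 0.36 (adjusted p = 0.0236), with -0.38 in set A and -0.34 in set B. TRPC4AP and KCNF1 also had array sets without overlap, so that 3 of 41 members, or 7.32%, were apart by array set, beside 11.3% of all genes.

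Among the genes under CACN, CACNB4 rose. Beta subunits hold the pore-forming subunit at the cell surface, and CACNB4 is best known from the brain. Exercised animals ran from 5.93 to 6.67 log2 (median 6.42) and sedentary animals from 5.82 to 6.27 (median 6.10), and 7 of 8 exercised animals lay above the whole sedentary range. The remaining animal, exercised 7, was at 5.93. The rise was 0.32 (SE 0.0963, adjusted p = 0.0397), with 0.40 in set A and 0.12 in set B. This call was close to the threshold. It was lost when exercised 1, 2, 3, 5, 6 or 8 or sedentary 1, 2, 3, 5 or 7 was left out in turn, at 0.26 to 0.33 (adjusted p = 0.0546 to 0.0778). It was also lost when probe sets up to the 40th percentile (adjusted p = 0.0827) or up to 5.12 log2 were left untested (adjusted p = 0.067). CACNG3, a subunit known from the brain, had all 8 exercised animals below the sedentary mean and narrowly did not pass, at -0.28 (95% interval -0.48 to -0.09, adjusted p = 0.0534). Without exercised 4, sedentary 1 or sedentary 7 it passed, at -0.32 to -0.31 (adjusted p = 0.0343 to 0.0479), and also with the array sets as a block (adjusted p = 0.0384) or with no sex term (adjusted p = 0.0371). Leaving out any other array did not make CACNG3 pass, with -0.24 without exercised 1, and the adjusted p reached 0.108. CACNA2D1, the alpha-2-delta subunit of the cardiac calcium channel, differed by 0.25 without passing (95% interval -0.15 to 0.66, adjusted p = 0.439). CACNB2, the cardiac beta subunit, was measured by a dim probe set at 4.40 log2, with a 95% interval of -0.25 to 0.00.

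The connexins of heart muscle and vessels did not pass. GJA1, connexin 43, joins working heart cells at their ends. It ran from 12.09 to 12.87 log2 in exercised animals (median 12.41) and from 12.36 to 12.79 in sedentary animals (median 12.54), so the sedentary range lay within the exercised range. The difference was -0.12 (SE 0.0906, adjusted p = 0.449), with a 95% interval of -0.31 to 0.07. GJA5, connexin 40 of conduction cells and arterial endothelium, had all 8 exercised animals below the sedentary mean, at 7.55 to 7.90 (median 7.69) against 7.56 to 8.43 (median 7.91). Its difference was -0.26 (95% interval -0.50 to -0.01, adjusted p = 0.173), and the spread among sedentary animals was the wider, with an SD of 0.31 against 0.12. Atrial and conduction cell markers were lower as well, with 1 of 3 past the test, NPPA at -0.78 (adjusted p = 0.0457), and SLN at -0.36 and MYL4 at -0.32 without passing. The mean level of that list was 6.78 to 7.74 log2 in exercised and 7.18 to 8.24 in sedentary animals, and its part in the GJA5 values was not tested. GJA4, connexin 37 of arterial endothelium, differed by 0.15 (95% interval -0.15 to 0.45, adjusted p = 0.555), and -0.03 in set A alone. Its female difference of 0.37 was 0.20 among the females of set A, without sedentary 8, and the difference in neutered males was -0.07. Endothelial markers had 0 of 8 past the test and a median difference of 0.01.

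GJB5 was the connexin that passed. Its connexin is best known from skin and other epithelia. It ran from 5.18 to 5.55 log2 in exercised animals (median 5.39) and from 5.66 to 6.10 in sedentary animals (median 5.82), with no overlap. The fall was 0.46 (SE 0.0648, adjusted p = 0.000341), with -0.46 in set A and -0.50 in set B. The second GJB5 probe set fell by 0.46 as well (adjusted p = 0.000948). GJB1, connexin 32, differed by 0.11 without passing (adjusted p = 0.384), with 0.29 in females and -0.08 in neutered males.

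**Figure D4:**
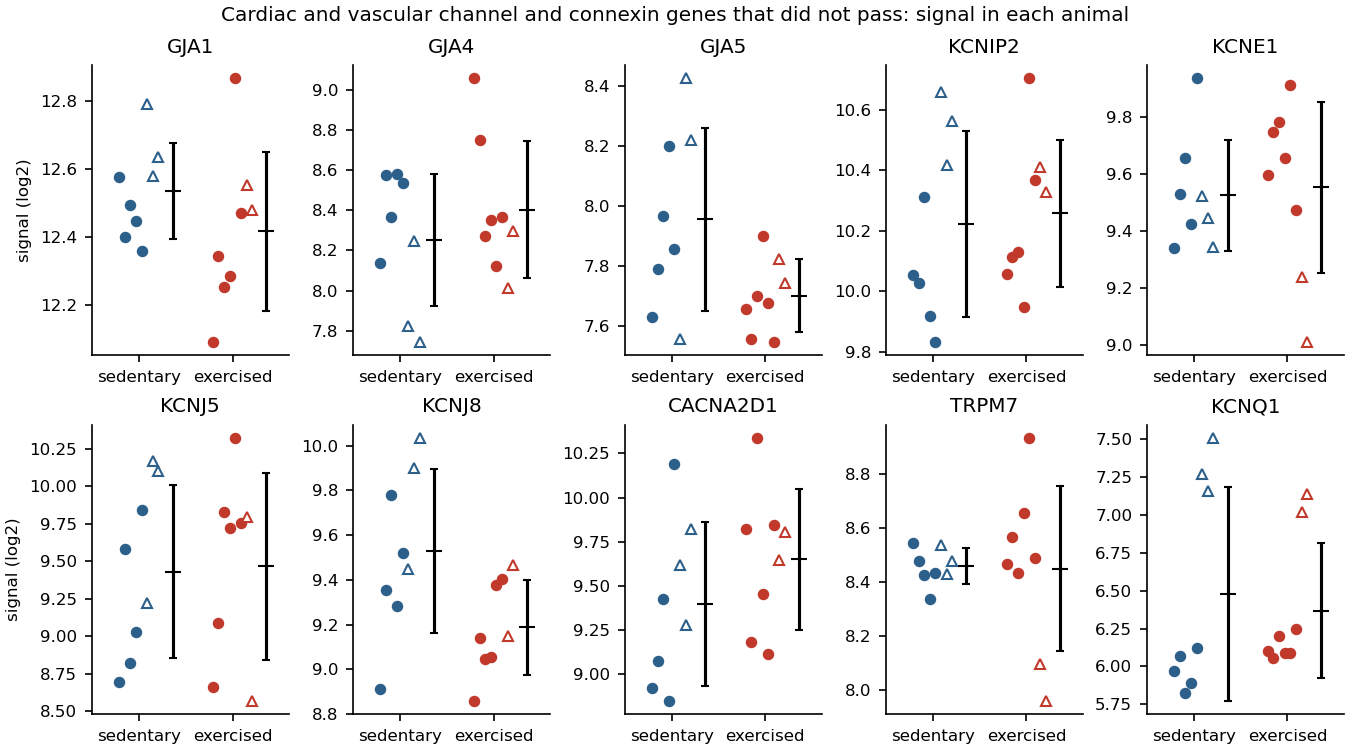
Signal in log2 (y axis) of 10 cardiac and vascular channel and connexin genes that did not pass on their brightest probe set, in each sedentary (blue) and exercised (red) animal, with filled circles for array set A, open triangles for set B, and mean and SD over 8 animals. The groups overlap in every panel, and KCNQ1 lies at 7.02 log2 or above in the 5 set B animals and at 6.25 or below in the others.

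Of the chloride genes CLCN5 fell. It codes for an endosomal chloride-proton exchanger best known from the kidney. It ran from 3.44 to 3.63 log2 in exercised animals (median 3.53) and from 3.80 to 4.22 in sedentary animals (median 3.90), apart from each other. The fall was 0.39 (SE 0.0657, adjusted p = 0.0012), with -0.44 in set A and -0.32 in set B. This was the dimmest of the 41 probe sets, at 3.72 log2 on average, where the median of the control probe sets was 3.73. CLCN2, a plasma membrane chloride channel, differed by -0.11 (95% interval -0.26 to 0.05). CLCN3, an endosomal exchanger, differed by 0.05 (95% interval -0.12 to 0.21), and its other 2 probe sets by -0.04 and 0.07, none passing.

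The TRP and SCN groups had no call. TRPM7, a magnesium- and calcium-permeable channel with a kinase domain, differed by -0.01 (95% interval -0.24 to 0.22, adjusted p = 0.973). Exercised 7 and 8 were its lowest animals, at 8.10 and 7.96 log2, and the difference was 0.15 in set A and -0.45 in set B. Its dimmer probe set gave 0.22 without passing (adjusted p = 0.0989), with all 8 exercised animals above the sedentary mean. TRPV6, an epithelial calcium channel, differed by -0.13 (adjusted p = 0.148) and TRPC4AP by 0.01. SCNN1A and SCNN1B, subunits of the epithelial sodium channel, differed by 0.10 and -0.13, and SCNM1 by 0.17 (adjusted p = 0.104). The remaining 6 genes, KCNA2, KCNB2, KCNF1, KCNJ1, KCNN3 and CACNB3, differed by -0.14 to 0.14, and 0 of them reached an unadjusted p under 0.05.

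Repeat probe sets gave a check within the array. Of the 17 genes with several probe sets, 8 had all differences of the same sign and 9 had both signs. In KCNJ3, KCNE4 and GJB5 every probe set passed. Both KCNJ3 probe sets, at 5.11 log2, and the second KCNE4 probe set, at 4.96 log2, lay below the 5.12 log2 of the control probe sets. KCNJ8, KCNQ1, KCNE1 and KCNMA1 had at least 1 probe set that passed and at least 1 that did not. Probe sets of a gene share the RNA of the same animals, so they do not add replicates.

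**Figure D5:**
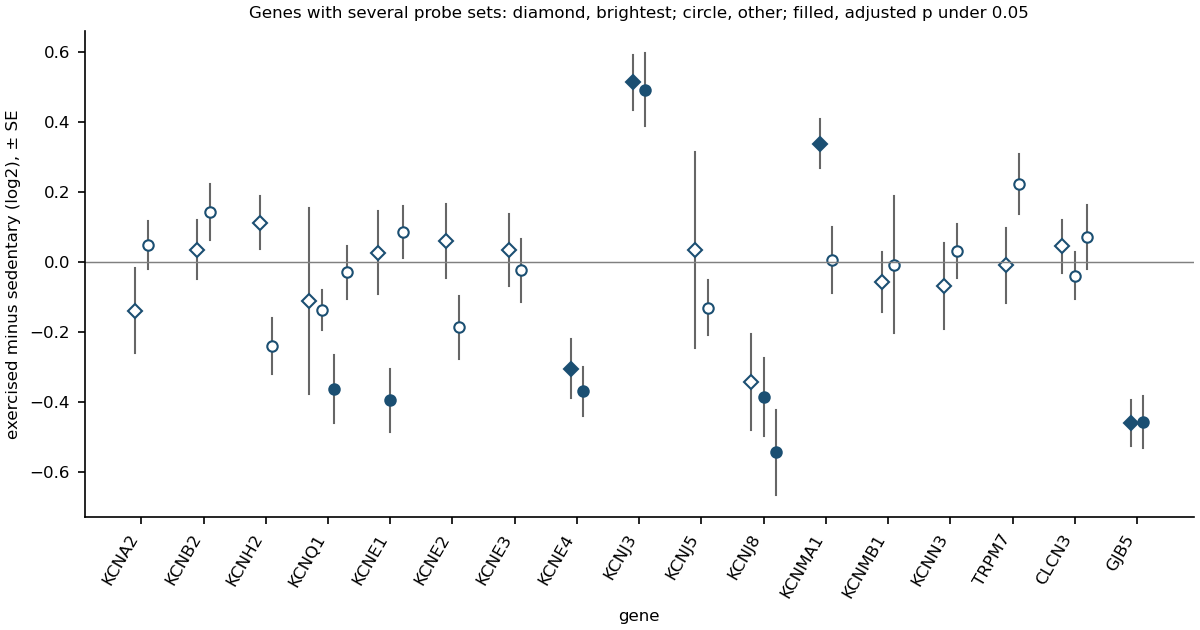
Difference in log2 signal between exercised and sedentary animals with its SE (y axis) for each probe set of the 17 genes with several (x axis), diamonds for the brightest and circles for the others, filled where the adjusted p was under 0.05. Both KCNJ3 points lie near 0.5, both GJB5 points at -0.46 and all 3 KCNJ8 points below 0.

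The comparison by sex asked whether training differed in size between females and neutered males. All 10 called genes had the same sign in both sexes. Array set B holds 1 sedentary female and 0 exercised females, so that female differences also span the array sets. KCNIP4 changed by -0.49 in females and -0.52 in neutered males, KCNJ3 by 0.56 and 0.47, CLCN5 by -0.39 in both, and GJB5 by -0.36 and -0.56, each passing within each sex (adjusted p from 0.00459 to 0.042). Among the 4 exercised and 3 sedentary females of set A, the differences were -0.52 for KCNIP4, 0.50 for KCNJ3, -0.44 for CLCN5 and -0.38 for GJB5. KCNIP1 passed in neutered males at -0.49 (adjusted p = 0.0328) and was -0.32 in females (adjusted p = 0.156). These made 4 calls in females, beside 2.60% of all genes, and 5 in neutered males, beside 2.57%. By limma no member passed the interaction test, beside 0% of all genes, with 1 at an unadjusted p under 0.05, GJB1. For the difference between females and neutered males by limma 0 members passed, beside 0.0739% of all genes, and 1, CACNB2, had an unadjusted p under 0.05.

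Other genes of excitability and coupling were counted from listed symbols. Of 42 channel partners and regulators 22 were measured, with 0 higher, 1 lower and 21 not passing, and a median difference of -0.02. The gene that fell was GEM, a small GTPase that binds calcium channel beta subunits and lowers the current, from 7.77 ± 0.28 to 7.18 ± 0.34 log2 (SD, n = 8 per group), a fall of 0.58 (SE 0.147, adjusted p = 0.0157). ANK3, the ankyrin that anchors sodium channels, differed by -0.46 without passing (adjusted p = 0.0651). Of 15 measured intracellular calcium release and store-operated channel genes 2 were lower, the skeletal release channel RYR1 at -0.54 on a dim probe set and ITPR1, and 13 did not pass. Among those 13, RYR2, at 11.56 log2, differed by 0.36 (adjusted p = 0.092). Among 10 disc partners of connexins, 8 pumps and exchangers and 7 transcription factors of conduction and channel genes, limma called 0, with medians of -0.06, -0.01 and -0.00.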

How the data were processed

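Biotin-labelled left ventricular RNA of 16 pigs was hybridised to an Affymetrix porcine array, per the labels' protocols. The authors deposited 1 log2 value for each probe set and animal. Summarisation and normalization are not given in the sources used here. All 16 columns share a median of 6.24 log2 and nearly equal quantiles, so no further normalization was applied. The table gives no detection calls.

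Of 24123 probe sets 188 controls were left out. Gene symbols are those of GEO's platform table, some of them possibly outdated. By Entrez identifier 38 of the 41 members matched RefSeq of assembly Sscrofa11.1, used for names only, and 0 symbols differed. A mean for each combination of training and sex was fitted in limma 3.58.1 (lmFit, eBayes; R 4.3.3), with 12 residual and 3.50 prior degrees of freedom. All p values are two-sided and were adjusted by Benjamini and Hochberg over the 23935 probe sets. Differences within array sets are plain differences of group means, except where an adjusted p for set A is given. The arrays were split where the mean of 36 poly-A control probe sets had its widest gap. Control probe sets for reporters and tags were tested in a fit with all probe sets. The script was tested on simulated data.

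Named were all members that passed, the 3 smallest p values of each class, the 3 largest rises and falls, the 10 brightest and the listed cardiac genes, 35 in all. The other 6 members are given together. Members and lists were chosen with earlier results of these data known. The number of arrays limits the precision. Other settings tried were filters on dim probe sets, quantile normalization, centring on the median, a trended robust eBayes, array weights, a replicate block, the array set as a block, set A alone, no sex term, the mean of a gene's probe sets, and leaving out each array. Figures were drawn with matplotlib 3.10.9.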

Additional observations from a re-analysis of the deposited data

Results flagged for a closer look

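In 3 of the 70 gene and group combinations examined for the named genes, the extreme animal lay far from the other 7. Chance gives about 5% of such cases. KCNH2 in exercised 4 was at 6.24 log2, below the 6.53 to 6.74 of the other exercised animals. KCNIP1 in sedentary 7 was at 5.41, above the 4.77 to 4.95 of the other sedentary animals, and without it the fall in KCNIP1 was 0.34 and still passed. CACNB4 in exercised 7 was at 5.93, below the 6.33 to 6.67 of the others, and without it the rise was 0.38 and passed. Of the control probe sets for reporter genes and artificial tags, which were outside the comparisons, 13 of 81 passed the training test, 7 higher and 6 lower.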

How the results depend on the processing

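Beside the 10 members called, the alternatives gave 8 to 11 calls, except the filters on dim probe sets and the replicate block. With only probe sets above the 40th percentile tested, 2 members passed, GJB5 and KCNA6, of 631 probe sets called, and above the 60th percentile 0 members of 77. Fewer members were tested there, but KCNE4 and CACNB4 lay above the 40th percentile and lost their calls at the same difference (adjusted p = 0.063 and 0.0827). Above the level of the control probe sets, an alternative chosen after seeing the data, 3 members passed, GJB5, KCNA6 and KCNE4, of 1066. With a replicate block 13 passed, adding KCNJ8 (adjusted p = 0.0228), CACNG3 (0.0319) and GJA5 (0.0398). The labels do not say that a number links animals. Deviations of same-numbered arrays correlated at 0.18 to 0.44 in 6 of 8 pairs and at -0.01 and 0.08 in the other 2, and 5 of 16 arrays were closest to their own number, so the pairing was not used. Leaving out each array gave 8 to 11 members and 2513 to 3108 probe sets. By limma no member passed for sex or the interaction under any alternative run.

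None of the 10 called members changed sign under any alternative run. Among members that did not pass, KCNQ1 turned to 0.11 with array weights, 0.042 with the array sets as a block and 0.16 in set A alone. KCNE1 turned to -0.027 with weights, -0.022 with the block and -0.093 as the mean of its probe sets. In set A alone KCNE3 was -0.0088, KCNMB1 0.0089, TRPM7 0.17 and GJA4 -0.027. As the mean of probe sets KCNH2 was -0.063, KCNE2 -0.062, KCNJ5 -0.047 and TRPM7 0.11. With each array left out, KCNQ1 ran from -0.24 to 0.082, KCNE1 from -0.043 to 0.11, KCNE2 from -0.0024 to 0.11, KCNE3 from -0.038 to 0.078, KCNIP2 from -0.044 to 0.11, KCNJ5 from -0.080 to 0.21, TRPM7 from -0.11 to 0.057, TRPC4AP from -0.053 to 0.071 and CLCN3 from -0.0014 to 0.080. The cause of these shifts was not tested. Without detection calls, a dim member cannot be said to be expressed.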
